A study of Saccharomyces cerevisiae with 24 samples.

Results

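Of the 5449 genes measured in this series, 34 serve the uptake and use of nitrogen sources or regulate it, and all 34 were found on the array. They were chosen by symbol: the allantoin, urea, arginine, proline, GABA, asparagine and ammonium genes and their transcription factors. RNA came from budding yeast grown aerobically in glucose-limited chemostats (1 L bioreactors, 30 °C, pH 5.0, 10 g/L glucose, dilution rate 0.1 per h) and sampled at steady state. There were 24 Affymetrix arrays, from 8 strains with 3 biological replicates apiece. The reference strain is labelled wild type, and the others are labelled sip1Δ, sip2Δ, gal83Δ, sip1Δ sip2Δ, sip1Δ gal83Δ, sip2Δ gal83Δ and sip1Δ sip2Δ gal83Δ (called the triple strain here). The proteins Sip1, Sip2 and Gal83 are interchangeable β-subunits of Snf1, which is the AMP-activated protein kinase of yeast. The labels name neither the strain background nor the nitrogen source of the medium, and no group received an agent. Whether each strain is 1 clone is not given in the sources used here.

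Yeast takes up preferred nitrogen sources first and keeps the genes for poorer ones off, a control called nitrogen catabolite repression. The GATA factors Gln3 and Gat1 activate these genes when preferred sources run low, the GATA factors Dal80 and Gzf3 oppose them, and activators such as Dal81, Dal82, Put3 and Uga3 respond to the presence of a particular source. Snf1 is best known for the control of carbon use, and it has also been linked to Gln3.

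Values are deposited log2 intensities, with array medians between 10.90 and 11.07 over the tested genes. A change is a difference of strain means on the log2 scale, with its standard error after ±, from a limma fit to all arrays with n = 3 per strain, and p-values are limma's, adjusted by the Benjamini-Hochberg method over all genes of a comparison. A gene was called at an adjusted p under 0.05. SIP1, SIP2 and GAL83 read near 2, the lower end of the scale, wherever the label says they were deleted, apart from 2 arrays. GAL83 read 9.72 in replicate 2 of the strain labelled sip1 gal83, and SIP2 read 6.0 in replicate 3 of the strain labelled sip1 sip2. The array labelled sip2 gal83 replicate 1 stood apart from its own strain, with 19.6% of all genes over 0.5 from the mean of the other replicates, where the other 23 arrays had 0.95% to 5.76%. Counts are given with and without these 3 arrays, and so are single changes where leaving them out ended or added a call or moved the value by over 1.5 times. All 7 comparisons with the reference use the same 3 reference arrays, so they are not independent of each other.

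Of the 34 nitrogen genes, 28 differed among the 8 strains by the moderated F test, where 71.4% of all genes did. In the sip2 gal83 strain 0 nitrogen genes were called higher than the reference and 20 lower. There 37.3% of all genes were called, 10.8% higher and 26.4% lower. The triple strain had 5 higher and 12 lower, where 38.4% of all genes were called, 14.9% higher and 23.5% lower. In the sip1 strain 3 were higher and 14 lower (39.4% of all genes, 10.3% higher and 29.1% lower). In the sip2 strain 0 were higher and 11 lower (40.7% of all genes, 8.55% higher and 32.1% lower). In the gal83 strain 3 were higher and 10 lower (41.2% of all genes, 10.6% higher and 30.6% lower). The sip1 gal83 strain had 0 higher and 6 lower (10.9% of all genes, 3.6% higher and 7.3% lower), and the sip1 sip2 strain had 1 higher and 0 lower (0.257% of all genes, 0.11% higher and 0.147% lower). The shares of the 34 genes called were 50%, 32.4% and 38.2% in the sip1, sip2 and gal83 strains, 50% in the triple strain and 58.8% in sip2 gal83. In the sip1 sip2 strain 8 of the 34 had an unadjusted p under 0.05. Which of the sip2 gal83 and triple strains had more calls depended on the setting. After median subtraction the triple strain had 16 and sip2 gal83 15, beside 38.8% and 39.7% of all genes. With the compared groups alone, a fit without the other strains, they had 23 and 8, beside 47.1% and 9.69% of all genes.

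Without the 3 doubted arrays 18, 12 and 14 nitrogen genes were called against the reference in sip1, sip2 and gal83, where 48.4%, 49% and 49.6% of all genes were. The sip1 sip2 strain then had 1 (0.752% of all genes), the sip1 gal83 strain 7 (16.5%), the sip2 gal83 strain 16 (28.2%) and the triple strain 20 (46.9%). Calls added in strains that keep all their arrays were GLT1 in sip1 at 0.156, PUT2 in sip2 and gal83 at 0.188 and 0.173, ASP3-1 in sip2 at 0.134 and GZF3 in gal83 at 0.153 (adjusted p = 0.0288, 0.0252, 0.0373, 0.00416 and 0.032). In sip1 gal83 GLN1 at 0.178 and UGA1 at -0.175 were added (adjusted p = 0.0423 and 0.0361). The 4 calls lost in sip2 gal83 were GZF3, DAL81, CAR2 and ASP3-1. There the changes of MEP1, MEP2, GAP1 and PUT4 were then -0.539, -0.863, -0.651 and -0.746, those of GDH3 and GDH2 -1.153 and -0.551, and those of DAL2, DUR3 and DAL5 -1.690, -1.028 and -0.506 (adjusted p = 0.00063, 0.00099, 0.00163, 0.00281, 0.000924, 9.6e-05, 0.000123, 0.00222 and 0.0173).

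**Figure D1:**
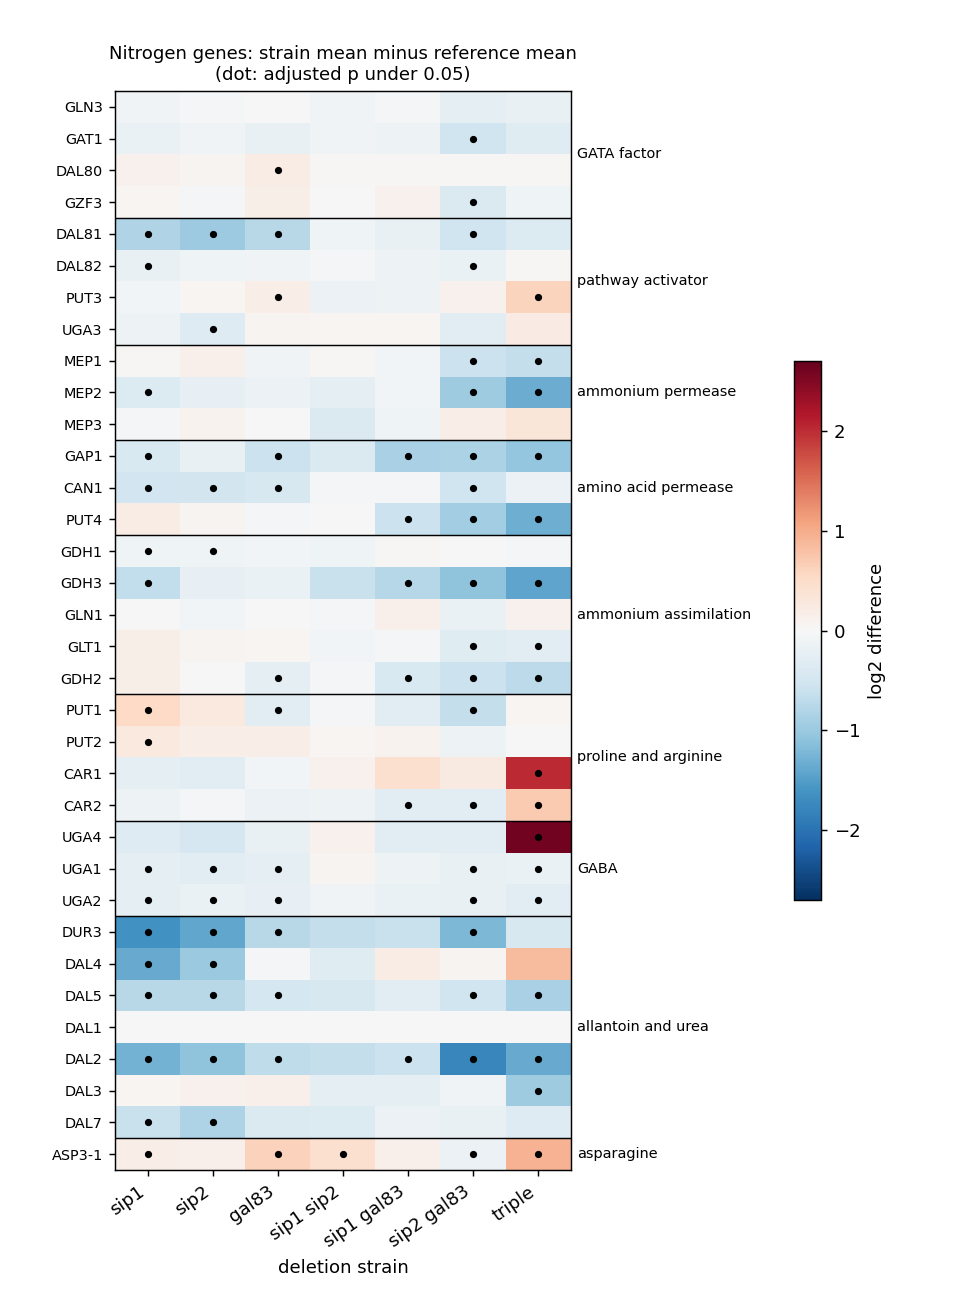
Log2 difference of each strain's mean from the reference mean (colour) for the 34 nitrogen genes in rows, ordered by role, and the 7 deletion strains in columns, with n = 3 arrays per strain. Dots mark adjusted p under 0.05 in the limma fit, and UGA4 at 2.60 and CAR1 at 2.01 in the triple strain are the strongest rises on the map.

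How many rose and how many fell in the single deletion strains depended on the scaling. The median change over all genes was -0.087 in sip1, -0.120 in sip2 and -0.097 in gal83. After each array's median was subtracted, the nitrogen genes split into 7 higher and 8 lower in sip1, 7 and 7 in sip2, and 6 and 5 in gal83. There 42.1%, 41.3% and 41.5% of all genes were called. After quantile normalization the splits were 4 and 9, 2 and 7, and 4 and 6, beside 38.1%, 34.5% and 36.2% of all genes. The sip1 gal83 strain then had 1 and 5, beside 11.8% of all genes. The higher counts after median subtraction include DAL1 in all 3 strains, a gene that read the same low value on every array. The triple strain had 5 higher and 11 lower after median subtraction, beside 38.8% of all genes called.

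**Figure D2:**
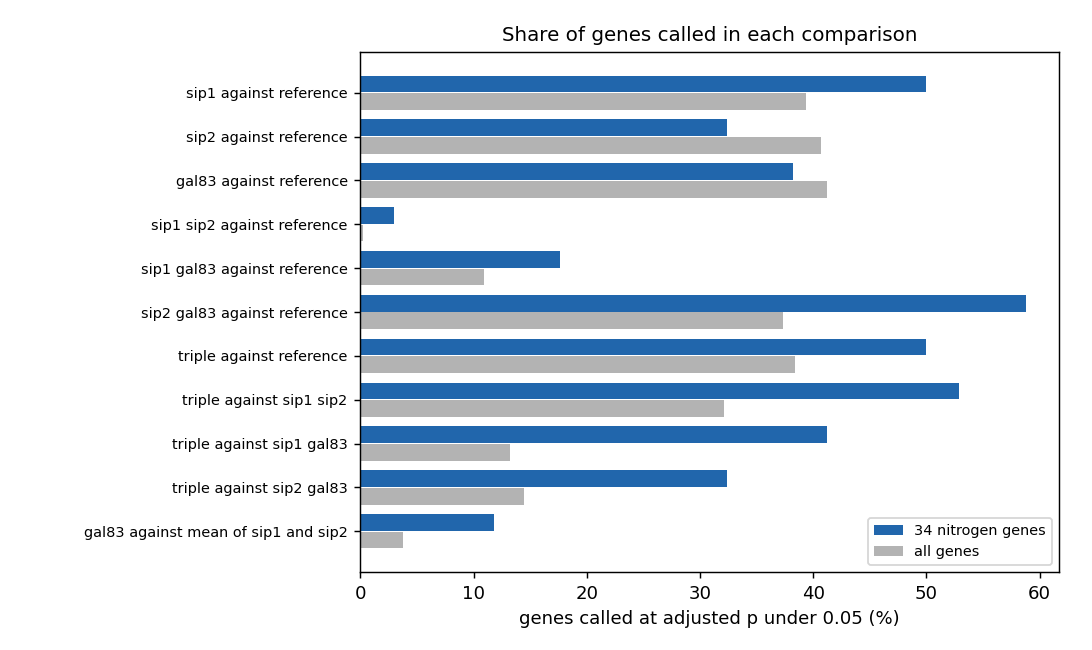
Percentage of genes called at adjusted p under 0.05 (horizontal axis, from 0) in 11 comparisons, for the 34 nitrogen genes (blue) and for all 5449 genes (grey). The widest gap between the bars is in the triple against the sip1 gal83 strain, 41.2% of the nitrogen genes and 13.2% of all genes.

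The triple strain was compared with each double deletion strain to ask what changed when the last β-subunit gene was removed. Against sip1 sip2, which keeps GAL83, 7 nitrogen genes were higher and 11 lower (32.1% of all genes were called, 14.1% higher and 18% lower). Against sip1 gal83, which keeps SIP2, 6 were higher and 8 lower (13.2% of all genes, 6.02% higher and 7.14% lower). Against sip2 gal83, which keeps SIP1, 10 were higher and 1 lower (14.5% of all genes, 9.54% higher and 4.94% lower). Without the 3 doubted arrays these were 9 and 12, 5 and 9, and 9 and 3 (38.2%, 13.1% and 14.4% of all genes were called). The added calls of GDH1 and GLN1 over sip1 sip2 were 0.104 and 0.212 (adjusted p = 0.0205 and 0.00836), and that of GZF3 against sip1 gal83 was -0.310 (adjusted p = 0.00452). PUT1 over sip1 gal83 and DUR3 over sip2 gal83, called with all arrays, were then 0.312 and 0.591 and not called (adjusted p = 0.112 and 0.0643). The median change of the 34 genes was -0.076, -0.110 and 0.143, beside -0.011, -0.021 and 0.014 over all genes.

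UGA4, encoding the permease for GABA, had the largest rise of the 34 genes on the deposited scale. Its triple arrays read 10.34, 10.29 and 9.73, while the reference arrays read 7.26, 7.33 and 7.99. Every array of the other strains lay between 6.22 and 7.99, so the triple strain overlapped with none of them. The change against the reference was 2.60 ± 0.34, or 6.04-fold (adjusted p = 1.44e-05). The size of this change rests on low values: all UGA4 arrays outside the triple strain and 1 inside it lie under 9.746, the level that bounds the lowest 25% of gene means. With all values raised to that floor the rise was 0.380 against the reference (adjusted p = 0.00553), below that of CAR1 at 2.014, and again 0.380 against each double strain. UGA4 also rose against each double strain, by 2.48 ± 0.34 over sip1 sip2, 2.89 ± 0.34 over sip1 gal83 and 2.90 ± 0.34 over sip2 gal83 (adjusted p = 2.81e-05, 1.22e-05 and 1.4e-05). In the other 6 strains UGA4 stood between -0.45 and 0.11 against the reference and was not called. The enzymes that act after the permease were lower. UGA1, encoding GABA transaminase, fell by 0.18 ± 0.05 in the triple strain (adjusted p = 0.00801), and UGA2, encoding succinate semialdehyde dehydrogenase, fell by 0.31 ± 0.06 (adjusted p = 0.00071). UGA3, encoding the activator of the GABA genes, stood at 0.22 ± 0.12 against the reference (adjusted p = 0.178). It rose by 0.50 ± 0.12 over sip2 gal83 (adjusted p = 0.0105), and by 0.31 without the 3 doubted arrays (adjusted p = 0.0475), but it was not called with the compared groups alone (adjusted p = 0.219).

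CAR1, encoding arginase, the first enzyme of arginine breakdown, rose by 2.01 ± 0.14 in the triple strain, or 4.04-fold (adjusted p = 1.25e-08). Its triple arrays read 13.86, 13.84 and 13.69, and the reference arrays 11.86, 11.77 and 11.72. No array of the other strains was above 12.40. Over the double strains the rise was 1.89 ± 0.14 (sip1 sip2), 1.59 ± 0.14 (sip1 gal83) and 1.78 ± 0.14 (sip2 gal83), with adjusted p = 3.62e-08, 3.91e-07 and 1.16e-07. The double strains labelled as lacking GAL83 had intermediate means, 12.20 ± 0.065 (SD) in sip1 gal83 and 12.02 ± 0.34 in sip2 gal83, but neither was called against the reference at 0.42 ± 0.14 and 0.24 ± 0.14 (adjusted p = 0.0641 and 0.197).

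CAR2, encoding ornithine transaminase, the next enzyme of the same route, rose by 0.71 ± 0.09 in the triple strain (adjusted p = 1.5e-05). The triple arrays read 14.12, 14.21 and 13.99, and the reference arrays 13.39, 13.36 and 13.44. In the double strains labelled as lacking GAL83 the direction was the other one. CAR2 fell by 0.30 ± 0.09 in sip1 gal83 and by 0.31 ± 0.09 in sip2 gal83 (adjusted p = 0.0464 and 0.015), so the triple strain exceeded them by 1.01 ± 0.09 and 1.02 ± 0.09 (adjusted p = 5.95e-07 and 5.6e-07). The fall in sip2 gal83 was not called without its replicate 1, at -0.181 (adjusted p = 0.0913), or with the compared groups alone (adjusted p = 0.219). The fall in sip1 gal83 was not called after median subtraction (adjusted p = 0.0803) or without any 1 of the reference arrays (adjusted p = 0.0906, 0.0887 and 0.142).

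PUT3, encoding the activator of the proline genes, rose by 0.61 ± 0.07 in the triple strain (adjusted p = 3.9e-06). Its arrays read 12.10, 11.97 and 11.96 there and 11.56, 11.34 and 11.30 in the reference. No array outside the triple strain was above 11.75. It also rose over sip1 sip2, sip1 gal83 and sip2 gal83, by 0.76 ± 0.07, 0.74 ± 0.07 and 0.48 ± 0.07 (adjusted p = 3.35e-07, 7.44e-07 and 0.000127). In gal83 PUT3 was called higher by 0.18 ± 0.07 (adjusted p = 0.0451), and without the 3 doubted arrays it was not (adjusted p = 0.0535). The genes known as Put3 targets were not called in the triple strain. PUT1, encoding proline oxidase, stood at 0.06 ± 0.11 and PUT2, encoding the next enzyme, at 0.01 ± 0.08 (adjusted p = 0.742 and 0.953).

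ASP3-1 encodes a secreted asparaginase whose gene is present in near-identical copies, and its probe set is shared between them, so which copy gave the signal is uncertain. Its triple arrays read 14.69, 14.64 and 14.59, and its reference arrays 13.67, 13.73 and 13.74, a rise of 0.93 ± 0.06 (adjusted p = 2.6e-09). The gal83 arrays at 14.32, 14.35 and 14.33 and the sip1 sip2 arrays at 14.13, 14.14 and 14.16 also lay above all reference arrays. These rises were 0.62 ± 0.06 in gal83 and 0.43 ± 0.06 in sip1 sip2 (adjusted p = 1.02e-06 and 0.000732), and ASP3-1 was the only nitrogen gene called in sip1 sip2. In the sip1 and sip2 strains it stood at 0.18 ± 0.06 and 0.13 ± 0.06, of which the first was called (adjusted p = 0.0181 and 0.0747), though not without reference replicate 1 or sip1 replicate 1 (adjusted p = 0.0686 and 0.0564). The sip1 gal83 strain had 0.13 ± 0.06 (adjusted p = 0.176). The sip2 gal83 strain was lower by 0.15 ± 0.06 (adjusted p = 0.046), a call that was lost without its replicate 1, at -0.076 (adjusted p = 0.279), and with the compared groups alone (adjusted p = 0.259).

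**Figure D3:**
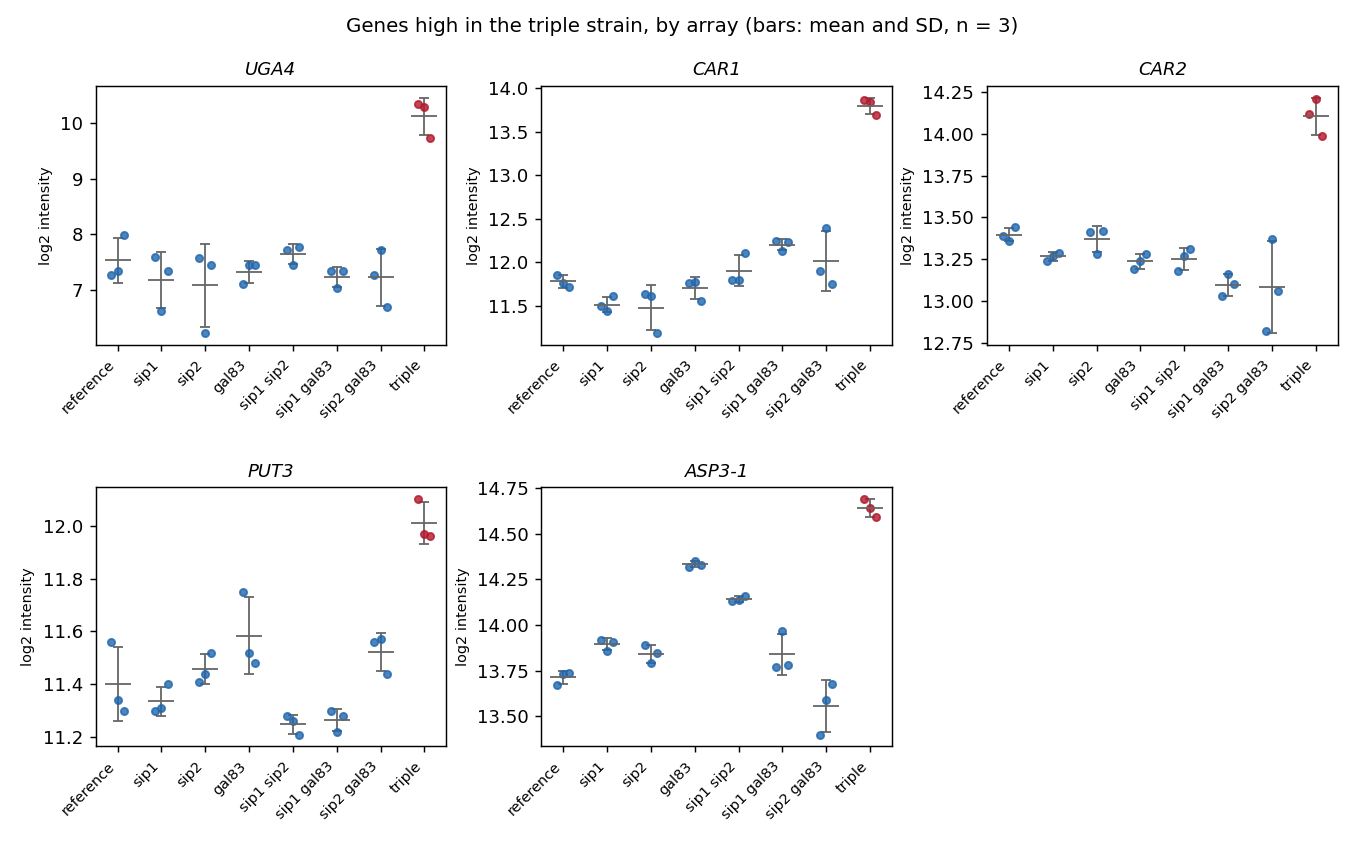
Log2 intensity of UGA4, CAR1, CAR2, PUT3 and ASP3-1 on each array (points; triple strain in red) for the 8 strains, with bars for the mean and SD of n = 3 arrays. The vertical axes start near the lowest array of each gene, and the 3 triple arrays lie above all other arrays in each panel.

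Of the 3 ammonium permease genes, 2 fell in the triple strain. MEP2, encoding the high-affinity permease that also acts as a sensor, fell by 1.33 ± 0.14 in the triple strain (2.52-fold, adjusted p = 1.36e-06) and by 0.96 ± 0.14 in sip2 gal83 (adjusted p = 0.000141). Its arrays read 12.39, 12.43 and 12.49 in the triple strain, 12.62, 12.80 and 13.01 in sip2 gal83, and 13.75, 13.94 and 13.63 in the reference. The remaining strains lay between 13.20 and 13.86, above both. The difference of the triple from the sip2 gal83 strain did not pass the test, at -0.37 ± 0.14 (adjusted p = 0.081), but the difference was -0.472 and called without the 3 doubted arrays (adjusted p = 0.044). MEP2 was also called lower in sip1, by 0.36 ± 0.14 (adjusted p = 0.0471), and this was not called after median subtraction, at -0.259 (adjusted p = 0.148), nor with the replicate number as a block (adjusted p = 0.0542) or the compared groups alone (adjusted p = 0.0613).

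MEP1, encoding another ammonium permease, showed the same strains low. The triple arrays read 12.53, 12.63 and 12.54, the sip2 gal83 arrays 12.58, 12.69 and 12.65, and the reference arrays 13.18, 13.24 and 13.20. MEP1 fell by 0.64 ± 0.08 in the triple strain and by 0.57 ± 0.08 in sip2 gal83 (adjusted p = 1.46e-05 and 0.000142). In the sip1 gal83 strain, which keeps SIP2, MEP1 stood at -0.07 ± 0.08 and MEP2 at -0.07 ± 0.14 (adjusted p = 0.66 and 0.832), and the triple strain was lower than it by 0.57 ± 0.08 and 1.26 ± 0.14 (adjusted p = 0.000166 and 6.48e-06). MEP3, encoding the low-affinity permease, was not called against the reference in any strain. Its arrays ranged from 8.35 to 9.16 in the reference and from 9.02 to 9.21 in the triple strain, and it rose by 0.71 ± 0.22 in the triple strain over sip1 sip2 (adjusted p = 0.0213), a call that was lost without sip1 sip2 replicate 1, at 0.554 (adjusted p = 0.103).

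Of the amino acid permease genes among the 34, GAP1 was called lower in all 4 strains labelled as lacking GAL83. GAP1 encodes the general amino acid permease. It read 12.95, 13.01 and 12.97 in the reference and 11.93, 11.93 and 11.90 in the triple strain, a fall of 1.05 ± 0.14 (adjusted p = 1.98e-05). It fell by 0.57 ± 0.14 in gal83, 0.88 ± 0.14 in sip1 gal83 and 0.85 ± 0.14 in sip2 gal83 (adjusted p = 0.0039, 0.000866 and 0.000376), the last not called with the compared groups alone (adjusted p = 0.054). Without the 3 doubted arrays GAP1 was also called lower in the triple than in the sip2 gal83 strain, at -0.403 (adjusted p = 0.0383), which with all arrays was -0.208 (adjusted p = 0.349). No array of these 4 strains reached the reference, the sip1 gal83 array that goes against its label included. GAP1 in the sip1 strain read 12.63, 12.54 and 12.52 and was called lower by 0.41 ± 0.14 (adjusted p = 0.0275), but not after median subtraction (adjusted p = 0.0865). The sip2 and sip1 sip2 strains stood at -0.19 ± 0.14 and -0.39 ± 0.14 and were not called (adjusted p = 0.295 and 0.343).

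PUT4, encoding the proline permease, fell in the strains labelled as lacking GAL83 together with another β-subunit gene. It read 13.57, 13.53 and 13.65 in the reference, 12.96, 13.20 and 12.83 in sip1 gal83, 12.32, 12.21 and 12.24 in the triple strain, and 12.24, 12.52 and 13.16 in sip2 gal83. The falls were 0.59 ± 0.17, 0.94 ± 0.17 and 1.33 ± 0.17 (adjusted p = 0.0368, 0.000717 and 1.48e-05), in the order sip1 gal83, sip2 gal83, triple. That of sip2 gal83 was not called with the compared groups alone (adjusted p = 0.0748). The triple strain was called lower than sip2 gal83 without the 3 doubted arrays, at -0.582 (adjusted p = 0.0202), and at -0.383 it was not called with all arrays (adjusted p = 0.151). The gal83 strain itself stood at -0.02 ± 0.17 (adjusted p = 0.933), with arrays of 13.40, 13.49 and 13.80. The interaction term, the double strain minus both single strains plus the reference, was -0.77 ± 0.24 for SIP1 with GAL83 and -0.99 ± 0.24 for SIP2 with GAL83 (adjusted p = 0.0136 and 0.00311). The call in sip1 gal83 was lost without any 1 reference array (adjusted p = 0.0726, 0.0798 and 0.112) and without its own replicate 1 or 3 (adjusted p = 0.0954 and 0.164).

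CAN1, encoding the arginine permease, had another pattern. It was called lower in sip1, sip2 and gal83, by 0.52 ± 0.14, 0.51 ± 0.14 and 0.44 ± 0.14, and in sip2 gal83, by 0.54 ± 0.14. In the triple strain it stood at -0.17 ± 0.14 (adjusted p = 0.367), and the same value was called when the 3 doubted arrays were left out of the fit (adjusted p = 0.0376). The sip2 gal83 fall was 0.280 without its replicate 1 (adjusted p = 0.00621), and with the compared groups alone it was not called (adjusted p = 0.192).

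Cells join ammonium to 2-oxoglutarate to make glutamate, mainly through the NADPH-dependent dehydrogenase Gdh1 and its isoenzyme Gdh3, and to glutamate to make glutamine through Gln1. Glt1 returns nitrogen from glutamine to glutamate, and the NAD-dependent Gdh2 releases ammonium from glutamate. GDH2 was lower in every strain labelled as lacking GAL83. Its arrays read 13.81, 13.82 and 13.89 in the reference, 13.52, 13.59 and 13.60 in gal83, 13.42, 13.60 and 13.26 in sip1 gal83, 13.19, 13.17 and 13.06 in the triple strain, and 13.20, 13.30 and 13.28 in sip2 gal83. No array of these 4 strains reached the lowest of the other 4, 13.70. The array that read 13.60 is sip1 gal83 replicate 2, whose GAL83 signal goes against its label. The fall in the triple strain was 0.70 ± 0.08, and those of gal83, sip1 gal83 and sip2 gal83 were 0.27 ± 0.08, 0.42 ± 0.08 and 0.58 ± 0.08 (adjusted p = 2.06e-06, 0.00856, 0.00215 and 6.57e-05). That of sip1 gal83 was not called with the compared groups alone (adjusted p = 0.0522). Nor was that of gal83 called after median subtraction (-0.156, adjusted p = 0.108). GDH2 was also lower in gal83 than in the mean of sip1 and sip2, by 0.36 ± 0.07 (adjusted p = 0.00304). The triple strain was lower than sip1 gal83 by 0.28 ± 0.08 (adjusted p = 0.0198), and this was not called without the array labelled sip1 gal83 replicate 2, at -0.197 (adjusted p = 0.123), or with the compared groups alone (adjusted p = 0.0914).

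GDH3 fell by 1.43 ± 0.17 in the triple strain (2.69-fold, adjusted p = 4.64e-06). Its arrays read 11.58, 11.79 and 11.96 in the reference and 10.46, 10.38 and 10.21 in the triple strain. It also fell in sip2 gal83 by 1.08 ± 0.17, in sip1 gal83 by 0.78 ± 0.17 and in sip1 by 0.67 ± 0.17 (adjusted p = 0.000217, 0.00624 and 0.00435). The sip1 sip2 strain stood at -0.60 ± 0.17 and was not called (adjusted p = 0.161), although its arrays of 10.94, 11.26 and 11.34 lay below the reference arrays. GDH1, the main isoenzyme gene, spanned 15.08 to 15.33 over all 24 arrays. Its falls of 0.12 ± 0.04 in sip1 and 0.11 ± 0.04 in sip2 were called (adjusted p = 0.0116 and 0.0185), but after median subtraction they were -0.021 and 0.025, so that the second changed sign.

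GLT1 fell by 0.33 ± 0.06 in sip2 gal83 and by 0.28 ± 0.06 in the triple strain (adjusted p = 0.00104 and 0.00214), the first not called with the compared groups alone (adjusted p = 0.0686). Its arrays read 13.24, 13.43 and 13.51 in the first and 13.47, 13.45 and 13.40 in the second, below the reference arrays of 13.76, 13.66 and 13.74. GLN1 spanned 14.33 to 14.50 in the reference and 14.47 to 14.57 in the triple strain, and it was called against the reference in no strain. It rose in the triple strain over sip2 gal83 by 0.29 ± 0.07 (adjusted p = 0.00866), not called with the compared groups alone (adjusted p = 0.17), where the sip2 gal83 arrays read 14.07, 14.37 and 14.30.

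**Figure D4:**
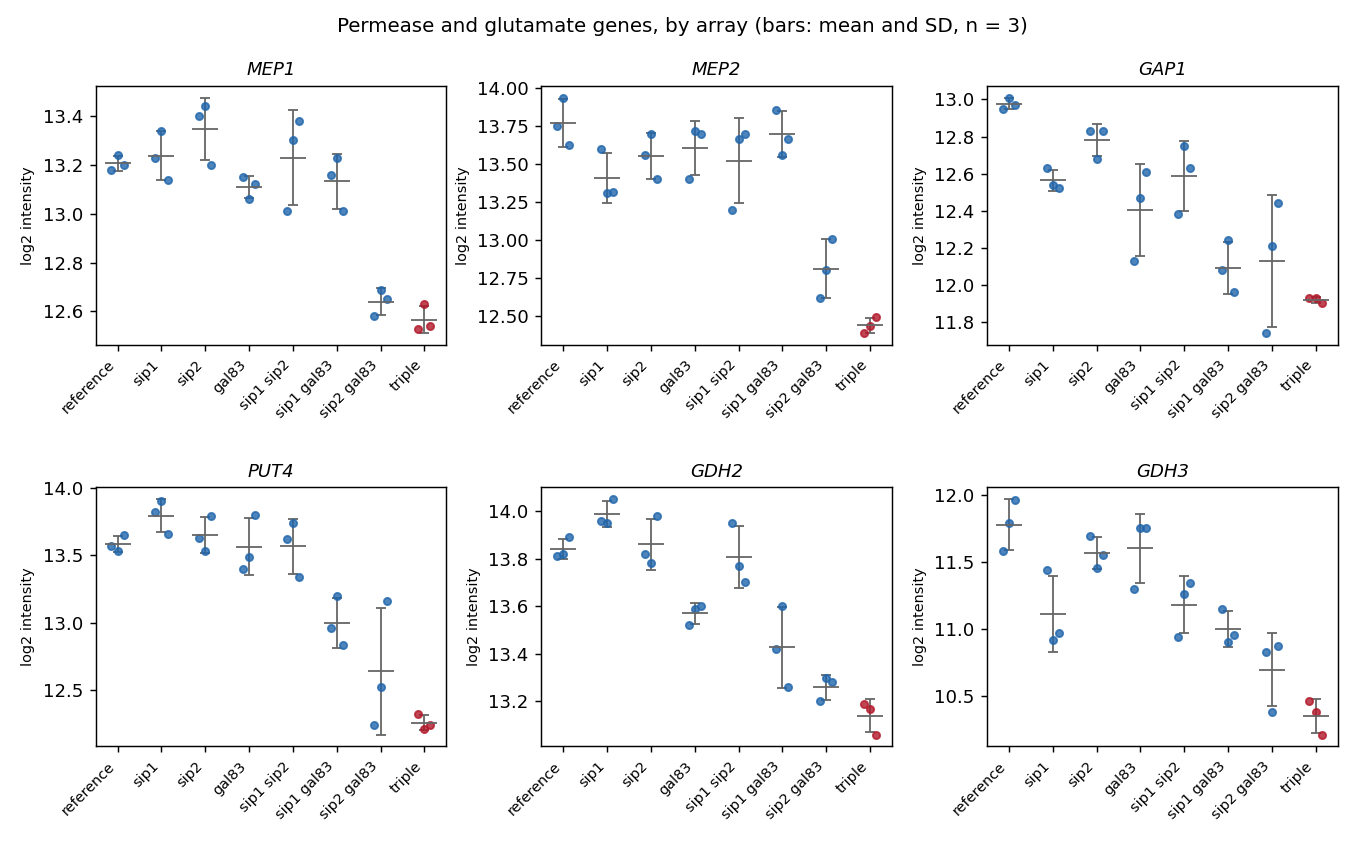
Log2 intensity of MEP1, MEP2, GAP1, PUT4, GDH2 and GDH3 on each array (points; triple strain in red) for the 8 strains, with bars for the mean and SD of n = 3 arrays. The vertical axes do not start at 0, and in MEP1 and MEP2 the sip2 gal83 and triple strains lie below all others.

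Of the genes for enzymes of proline use, PUT1 was called against the reference in 3 strains and PUT2 in 1. PUT1 rose by 0.54 ± 0.11 in sip1 (adjusted p = 0.000952), where its arrays read 12.90, 12.82 and 12.82 against 12.22, 12.39 and 12.31 in the reference. It fell by 0.64 ± 0.11 in sip2 gal83 (arrays of 11.54, 11.78 and 11.68, adjusted p = 0.000479) and by 0.29 ± 0.11 in gal83 (adjusted p = 0.0409). Without gal83 replicate 1 the last was -0.186 and not called (adjusted p = 0.215), and the same held after median subtraction, at -0.177 (adjusted p = 0.224). The gal83 strain was lower than the mean of sip1 and sip2 by 0.70 ± 0.09 (adjusted p = 0.000157). PUT2 rose in sip1 by 0.25 ± 0.08 (adjusted p = 0.0138) and was called in no other comparison with the reference when all arrays were used. Its strain means lay between 12.34 and 12.73.

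The allantoin and urea genes let yeast use purine breakdown products. DAL1, DAL4, DAL2, DAL7 and DAL3 lie in a run on chromosome IX with only DCG1 among them in the protein-coding genes of assembly R64, while DAL5 and DUR3 are on chromosomes X and VIII. DAL2, encoding allantoicase, read 10.80, 10.93 and 10.86 in the reference and was below that in each of the 21 arrays of the deletion strains. It was called lower in 6 strains. The largest falls were 1.76 ± 0.18 in sip2 gal83 (arrays of 8.97, 8.95 and 9.39, adjusted p = 7.25e-06), 1.37 ± 0.18 in the triple strain (9.50, 9.69 and 9.29, adjusted p = 1.75e-05), 1.28 ± 0.18 in sip1 (10.07, 9.39 and 9.29, adjusted p = 4.76e-05) and 1.08 ± 0.18 in sip2 (9.76, 9.72 and 9.86, adjusted p = 0.000169). In gal83 and sip1 gal83 the falls were 0.69 ± 0.18 and 0.58 ± 0.18 (adjusted p = 0.00562 and 0.0483). The last was not called with the replicate block (adjusted p = 0.0649) or without the 3 doubted arrays, at -0.539 (adjusted p = 0.104). The sip1 sip2 strain, at -0.65 ± 0.18, was not called (adjusted p = 0.161). With values raised to the floor the sip2 gal83 and triple changes were both -1.116.

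DAL3, encoding ureidoglycolate lyase, was lower in the triple strain, where its arrays read 10.38, 10.37 and 10.37 against 11.25, 11.34 and 11.39 in the reference. This fall was 0.95 ± 0.27 (adjusted p = 0.0105). In the single deletion strains DAL3 stood between 0.05 and 0.14 and was not called. The array labelled sip2 gal83 replicate 1 read 12.13, where the other replicates read 10.57 and 11.02, and without it the difference of the triple from the sip2 gal83 strain went from -0.87 ± 0.27 (adjusted p = 0.041) to -0.420 (adjusted p = 0.17), and it was not called with the compared groups alone either (adjusted p = 0.327). Without the 3 doubted arrays DAL3 was also called lower in the triple strain than in sip1 sip2, by 0.710 (adjusted p = 0.0109), and than in sip1 gal83, by 0.801 (adjusted p = 0.0151). With all arrays these did not pass (adjusted p = 0.0518 and 0.101).

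DUR3, encoding the urea permease, fell by 1.63 ± 0.19 in sip1 (3.1-fold, adjusted p = 9.28e-06), 1.40 ± 0.19 in sip2 (adjusted p = 2.93e-05), 1.22 ± 0.19 in sip2 gal83 (adjusted p = 0.000246) and 0.74 ± 0.19 in gal83 (adjusted p = 0.00521). Its arrays read 9.97, 10.34 and 10.07 in the reference, 8.72, 8.25 and 8.52 in sip1, and 8.43, 9.05 and 8.71 in sip2. The triple arrays at 9.89, 9.72 and 9.47 lay just below the reference, a difference of -0.44 ± 0.19 that was not called (adjusted p = 0.0808). DUR3 was higher in gal83 than in the mean of sip1 and sip2 by 0.77 ± 0.17 (adjusted p = 0.0103). This call was lost without gal83 replicate 1 (adjusted p = 0.0763) and with the compared groups alone (adjusted p = 0.0523). With values raised to the floor of 9.746 the changes in sip1, sip2, gal83 and sip2 gal83 were all -0.385 and still called (adjusted p = 0.000332, 0.000293, 0.000303 and 0.000541), and the difference of gal83 from the other single strains was 0.000. The sizes and the order of the DUR3 falls therefore rest on values under that floor.

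DAL5, encoding the allantoate permease, fell by 0.87 ± 0.13 in the triple strain, 0.75 ± 0.13 in sip1 and again 0.75 ± 0.13 in sip2, 0.55 ± 0.13 in sip2 gal83 and 0.48 ± 0.13 in gal83 (adjusted p = 5.87e-05, 0.000285, 0.000241, 0.00438 and 0.00702). The triple arrays read 9.30, 9.23 and 8.95, against 9.87, 10.20 and 10.02 in the reference. With values raised to the floor all 5 changes were -0.283, so their order also rests on low values, and the sip2 gal83 fall was not called with the compared groups alone (adjusted p = 0.0696). DAL7, encoding a malate synthase of this pathway, was called lower in sip1 and sip2, by 0.60 ± 0.23 and 0.82 ± 0.23 (adjusted p = 0.0474 and 0.00843). The first was not called with the replicate block (adjusted p = 0.0535), and neither after quantile normalization (-0.449 and -0.583, adjusted p = 0.137 and 0.0592).

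DAL4, encoding the allantoin permease, was dim, with reference arrays of 5.01, 4.97 and 5.60. It read 3.91, 2.98 and 4.60 in sip1 and 5.14, 3.58 and 3.88 in sip2, and was called lower by 1.36 ± 0.38 and 0.99 ± 0.38 (adjusted p = 0.00868 and 0.044). Its triple arrays of 6.27, 6.19 and 5.67 lay above all reference arrays, but the rise of 0.85 ± 0.38 was not called (adjusted p = 0.087). After quantile normalization neither fall was called, at -0.560 and -0.141 (adjusted p = 0.214 and 0.794). The sip1 call was lost without sip1 replicate 2, at -0.938 (adjusted p = 0.0594), and the sip2 call without the 3 doubted arrays (adjusted p = 0.0502). With the compared groups alone neither was called (adjusted p = 0.0657 and 0.132). Every array lay under the floor. DAL1, encoding allantoinase, read 1.96 to 1.98 on all 24 arrays, the lower end of the scale, so these arrays give no information on its level.

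**Figure D5:**
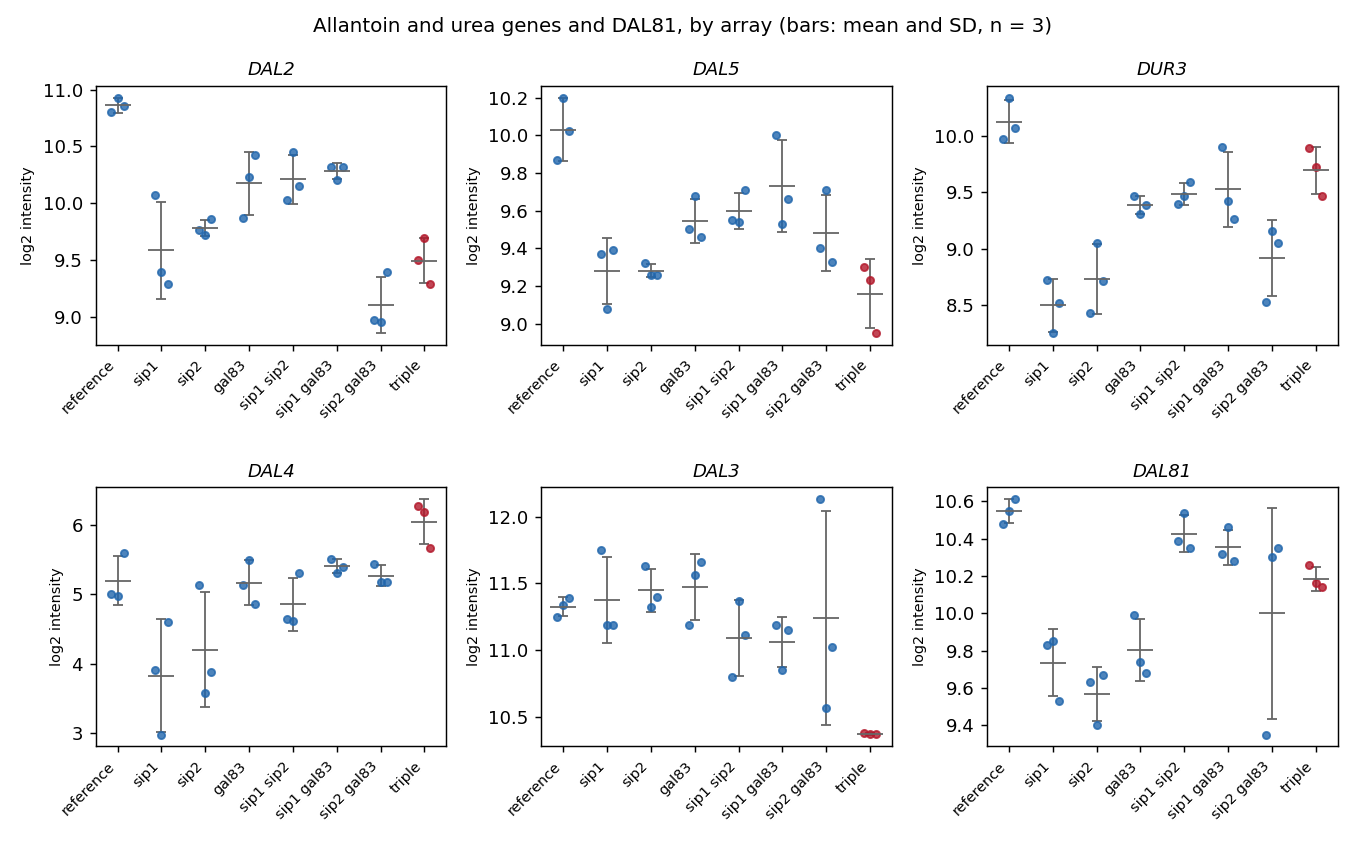
Log2 intensity of DAL2, DAL5, DUR3, DAL4, DAL3 and DAL81 on each array (points; triple strain in red) for the 8 strains, with bars for the mean and SD of n = 3 arrays. The vertical axes do not start at 0, and DAL2 lies below the reference in all deletion strains while the 3 triple arrays of DAL3 lie below every other array.

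DAL81, encoding an activator that the allantoin, urea and GABA genes share, fell in the single deletion strains. Its arrays read 10.48, 10.55 and 10.61 in the reference, 9.83, 9.85 and 9.53 in sip1, 9.63, 9.40 and 9.67 in sip2, and 9.99, 9.74 and 9.68 in gal83. The falls were 0.81 ± 0.18, 0.98 ± 0.18 and 0.75 ± 0.18 (adjusted p = 0.00204, 0.000407 and 0.00348). In sip1 sip2 and sip1 gal83 it stood at -0.12 ± 0.18 and -0.19 ± 0.18 and was not called (adjusted p = 0.947 and 0.57), and the interaction terms were 1.67 ± 0.26 and 1.36 ± 0.26 (adjusted p = 3.91e-05 and 0.000283). In sip2 gal83 the fall of 0.55 ± 0.18 was called (adjusted p = 0.0261), but it was -0.224 without replicate 1 (adjusted p = 0.129) and not called with the compared groups alone (adjusted p = 0.264). The triple strain stood at -0.36 ± 0.18 (adjusted p = 0.128), and the same change was called without the 3 doubted arrays (adjusted p = 0.00675). DAL82, the partner activator gene for the allantoin genes, was called lower by 0.19 ± 0.07 in sip1 and 0.18 ± 0.07 in sip2 gal83 (adjusted p = 0.036 and 0.0441), and neither was called after median subtraction, at -0.087 and -0.106 (adjusted p = 0.323 and 0.225). Its arrays ranged from 10.13 to 10.31 in the reference and from 10.13 to 10.35 in the triple strain. UGA3 was called lower in sip2, by 0.35 ± 0.12 (arrays of 10.79, 11.01 and 10.74 against 11.19, 11.20 and 11.21, adjusted p = 0.0297), and not after median subtraction (-0.212, adjusted p = 0.162).

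Of the 4 GATA factor genes, none was called in the triple strain against the reference. GLN3 was called in no comparison, with strain means between 9.92 and 10.18 and reference arrays of 10.26, 10.16 and 10.06. GAT1 read 11.16, 11.18 and 11.28 in the reference and 10.21, 10.79 and 10.97 in sip2 gal83, a fall of 0.55 ± 0.13 (adjusted p = 0.00498), or 0.323 without replicate 1 (adjusted p = 0.0141). With the compared groups alone it was not called (adjusted p = 0.159). In the triple strain GAT1 read 10.81, 10.94 and 10.91 and stood at -0.32 ± 0.13 (adjusted p = 0.0691), a change that was called without the 3 doubted arrays (adjusted p = 0.00613). GZF3 was called lower in sip2 gal83 by 0.40 ± 0.13 (adjusted p = 0.0289). Its replicate 1 read 9.49, where the others read 10.18 and 10.27 and the reference 10.36, 10.43 and 10.34, and without it the difference was -0.152 and not called (adjusted p = 0.134), nor was it with the compared groups alone (adjusted p = 0.284). DAL80 lay between 2.02 and 2.40 on all arrays, at the lower end of the scale. Its called difference of 0.20 ± 0.06 in gal83 (adjusted p = 0.0183) lies within that range and carries no information on its level.

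UGA1 and UGA2 were called lower in 5 strains each, all by small amounts. For UGA1 these were sip1, sip2, gal83, sip2 gal83 and the triple strain, with changes from -0.31 ± 0.05 in sip2 to -0.18 ± 0.05 in the triple strain. For UGA2, in the same strains, they ran from -0.31 ± 0.06 in the triple strain to -0.18 ± 0.06 in sip2. After median subtraction the UGA1 calls in gal83, sip2 gal83 and the triple strain were lost (adjusted p = 0.0508, 0.063 and 0.121), and so were those of UGA2 in sip1, sip2, gal83 and sip2 gal83 (adjusted p = 0.0584, 0.637, 0.174 and 0.163).

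Where the gal83 strain was set against the mean of the other single deletion strains, a comparison without reference arrays, 2 nitrogen genes were higher and 2 lower (3.74% of all genes were called, 2.24% higher and 1.5% lower). ASP3-1 was higher by 0.46 ± 0.05 (adjusted p = 1.83e-05) and DUR3 was higher as given above, while PUT1 and GDH2 were lower. DAL4 stood at 1.15 ± 0.33 and did not pass (adjusted p = 0.063). Without the 3 doubted arrays 3 nitrogen genes were higher and 2 lower, where 6.06% of all genes were called. The added call was UGA3, higher in gal83 by 0.308 (adjusted p = 0.0275), which with all arrays did not pass (adjusted p = 0.139).

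The interaction terms tested whether 2 deletions added on the log2 scale. For SIP1 with SIP2 13 nitrogen genes had a positive and 3 a negative term (52.4% of all genes were called, 38.9% positive and 13.4% negative). For SIP1 with GAL83 there were 11 and 8 (51.3%, with 36.6% and 14.6%), and for SIP2 with GAL83 8 and 11 (47.8%, with 33.9% and 13.9%). The medians over the 34 genes were 0.152, 0.108 and -0.083, beside 0.174, 0.145 and 0.128 over all genes. The shares of the 34 genes called were 47.1%, 55.9% and 55.9%. Without the 3 doubted arrays the splits were 11 and 3, 13 and 7, and 8 and 10 (56.7%, 56% and 53.7% of all genes). After median subtraction the splits were 8 and 8, 7 and 9, and 5 and 13 (54.2%, 53% and 50.1% of all genes). After quantile normalization they were 8 and 5, 8 and 8, and 3 and 13 (49.9%, 49.2% and 43.4% of all genes). DUR3 had terms of 2.39 ± 0.27, 1.77 ± 0.27 and 0.92 ± 0.27 (adjusted p = 1.8e-06, 4.01e-05 and 0.00935), which means that the double strains had less of a fall than the sum of the falls in the single strains. With values raised to the floor these terms were 0.385, 0.436 and 0.385. ASP3-1 had negative terms of -0.68 ± 0.08 with SIP1 and GAL83 and -0.91 ± 0.08 with SIP2 and GAL83 (adjusted p = 3.89e-06 and 2.53e-07). The ASP3-1 means were 14.33 in gal83, 13.84 in sip1 gal83 and 13.56 in sip2 gal83.

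Other genes of nitrogen control were counted in lists outside the 34. In the triple strain 38.4% of all genes were called, 14.9% higher and 23.5% lower. Of 13 other regulators, 4 rose and 5 fell there, 69.2% in all. UME6, encoding a repressor of CAR1 and of meiotic genes, stood at 0.65 ± 0.15 (adjusted p = 0.00327), and PAR32, encoding an inhibitor of ammonium permeases, at 0.37 ± 0.07 (adjusted p = 0.000589). In the sip1, sip2 and gal83 strains 1, 0 and 0 of the 13 rose and 6, 7 and 6 fell, in all 53.8%, 53.8% and 46.2%, beside 39.4%, 40.7% and 41.2% of all genes. UME6 fell in these strains by 0.71 ± 0.15, 0.75 ± 0.15 and 0.84 ± 0.15 (adjusted p = 0.00173, 0.000984 and 0.000417). Of 11 measured further genes under nitrogen catabolite repression, 4 rose and 3 fell in the triple strain, 63.6% in all. DIP5, encoding a permease for acidic amino acids, rose by 3.31 ± 0.53 from a dim 4.14 ± 0.053 (SD) to 7.45 ± 0.65 (adjusted p = 0.000105). Both of these means lie under the floor of 9.746, so the size of the DIP5 rise rests on low values. AGP1, encoding a broad amino acid permease, rose by 1.76 ± 0.14 from 10.14 ± 0.10 to 11.90 ± 0.22 (adjusted p = 5.51e-08). In sip2 gal83 3 of the 11 rose and 2 fell, 45.5% beside 37.3% of all genes. Among them were DIP5 and PTR2, encoding a peptide permease, which rose by 2.76 ± 0.53 and 1.14 ± 0.33 (adjusted p = 0.000981 and 0.0135). These counts and rises draw on the sip2 gal83 array that stood apart and are not given without it. AGP1 was lower in the sip1, sip2 and gal83 strains, by 0.61 ± 0.14, 0.46 ± 0.14 and 0.80 ± 0.14 (adjusted p = 0.00234, 0.0128 and 0.000264). Amino acid permease genes stood on both sides in the triple strain, with GAP1 and PUT4 lower and AGP1 and DIP5 higher, the last at levels under the floor.

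Of 10 genes of 2-oxoglutarate supply and of the retrograde pathway, which feeds glutamate synthesis from mitochondria, 3 rose and 2 fell in the triple strain, 50% in all. DLD3, a retrograde target, rose there by 0.75 ± 0.10 (adjusted p = 2.32e-05), and RTG1, encoding a retrograde activator, fell by 0.86 ± 0.28 (adjusted p = 0.0228). RTG1 also fell in sip1, sip2 and gal83, by 2.04 ± 0.28, 1.80 ± 0.28 and 1.80 ± 0.28 (adjusted p = 3.83e-05, 0.000101 and 0.000111). In those strains 0 of the 10 genes rose and 3, 7 and 4 fell, 30%, 70% and 40%. The shares of all genes there are those given beside the regulators. In sip1 gal83 DLD3 and CIT2, encoding peroxisomal citrate synthase, rose by 0.82 ± 0.10 and 0.45 ± 0.06 (adjusted p = 0.000128 and 0.000299) and 0 fell, 20% of the 10 beside 10.9% of all genes. Both rises draw on the sip1 gal83 array that goes against its label and are not given without it. No gene of the 3 lists was called in sip1 sip2 by limma, where 2, 0 and 1 of them had an unadjusted p under 0.05.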

How the data were processed

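The series holds deposited log2 values for each probe set, which the authors made by RMA with the affy package, as the submitters' processing notes name them without versions. Which arrays were normalized together is not given in the sources used here. Of 5716 probe sets, 5498 name 1 gene and 218 name none. Every identifier was found in the RefSeq gene table of assembly R64, which served for names and gene order only. For a gene with several probe sets, the brightest on average was kept, leaving 5449 genes. Each of the 34 members has 1 probe set. Low values were not filtered.

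The fit used limma 3.58.1 (R 4.3.3) with 1 mean for each strain over the 24 arrays, empirical Bayes moderation, two-sided tests and Benjamini-Hochberg adjustment over all genes, with 16 residual degrees of freedom. It was tested on simulated data, and the outcome of that test is not given here. The members, gene lists and comparisons were chosen with earlier results of these data known. Array values are given for up to 12 members with the largest called changes against the reference and for the GATA factors, pathway activators, GAP1, ammonium permeases and assimilation genes. Other members are given by range, or with values where called in 3 or more strains, and PUT2, DAL7 and DAL1 were described after their values were seen. Alternatives were median subtraction, quantile normalization, leaving out the lowest 25% of genes, raising values to a floor of 9.746, all probe sets, trend and robust moderation, array weights, a replicate block, compared groups alone, each array left out, and 3 doubted arrays left out. No 2 arrays were identical. The number of arrays limits the precision. DUR12 was listed but not analysed here.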

Additional observations from a re-analysis of the deposited data

Results flagged for a closer look

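For 25 of the 34 nitrogen genes at least 1 of 3 interaction terms was called by limma at an adjusted p under 0.05. In these the effect of deleting 1 β-subunit gene, as read on the deposited scale, differed with the presence of another. The share of all genes with at least 1 called term was not counted, so the 25 cannot be set against a background. The term is the log2 level of the double strain minus those of both single strains plus that of the reference, so 0 means that the 2 effects add. All 3 terms share the reference arrays. Taken one at a time, 47.1%, 55.9% and 55.9% of the nitrogen genes had a called term for SIP1 with SIP2, SIP1 with GAL83 and SIP2 with GAL83, beside 52.4%, 51.3% and 47.8% of all genes.

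For SIP1 with SIP2, positive terms were those of DUR3 at 2.39, DAL4 at 2.02, DAL2 at 1.71, DAL81 at 1.67 and DAL5 at 1.07. Smaller positive terms in this pair were those of DAL7 at 1.06, CAN1 at 0.98, CAR1 at 0.68, UGA1 at 0.64 and UGA3 at 0.53. Smaller positive terms in this pair were those of UGA2 at 0.35, DAL82 at 0.25 and GDH1 at 0.13. Negative terms were those of PUT1 at -0.87, PUT2 at -0.39 and GLT1 at -0.30.

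For SIP1 with GAL83, positive terms were those of DUR3 at 1.77, DAL4 at 1.60, DAL2 at 1.39, DAL81 at 1.36 and DAL5 at 0.93. Smaller positive terms in this pair were those of CAN1 at 0.92, DAL7 at 0.82, CAR1 at 0.76, UGA1 at 0.36 and UGA2 at 0.32. The smallest positive term in this pair was GDH1 at 0.22. Negative terms were those of PUT4 at -0.77, ASP3-1 at -0.68, PUT1 at -0.56, PUT2 at -0.34, DAL80 at -0.29 and GDH2 at -0.29. Smaller negative terms in this pair were those of GLT1 at -0.26 and PUT3 at -0.25.

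For SIP2 with GAL83, positive terms were those of DAL81 at 1.18, DAL7 at 1.01, DUR3 at 0.92, DAL5 at 0.68 and CAR1 at 0.61. Smaller positive terms in this pair were those of UGA1 at 0.36, UGA2 at 0.22 and GDH1 at 0.19. Negative terms were those of PUT4 at -0.99, ASP3-1 at -0.91, GDH3 at -0.69, MEP1 at -0.61, PUT1 at -0.61 and MEP2 at -0.58. Smaller negative terms in this pair were those of GZF3 at -0.51, PUT2 at -0.50, GLT1 at -0.46, GDH2 at -0.33 and DAL80 at -0.25.

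DAL80 read near 2 on every array, and DAL4 was dim, so their terms rest on signal near the lower end of the scale. The called terms of both genes vanished with values raised to the floor. With values raised to a floor of 9.746, the DUR3 terms were 0.385, 0.436 and 0.385 and the DAL5 terms 0.283, 0.366 and 0.283. All terms of SIP2 with GAL83 draw on the sip2 gal83 array that stood apart, and those of the other pairs draw on the sip1 sip2 and sip1 gal83 arrays that go against their labels. Without these 3 arrays the called terms numbered 14, 20 and 18. The terms of DAL82 and GDH1 were then lost for SIP1 with SIP2, at 0.240 and 0.104, and that of PUT3 for SIP1 with GAL83, at -0.228 (adjusted p = 0.0695, 0.055 and 0.0919). For SIP2 with GAL83 those of DAL80, MEP2 and UGA2 were lost, at -0.251, -0.480 and 0.208 (adjusted p = 0.0592, 0.052 and 0.0736), and that of GZF3 was -0.260. Terms called only without the 3 arrays were those of MEP2 and GLN1 for SIP1 with GAL83, at 0.525 and 0.190, and of CAN1 and DAL3 for SIP2 with GAL83, at 0.661 and -0.803 (adjusted p = 0.0339, 0.0425, 4.5e-05 and 0.019).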

How the results depend on the processing

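Of 186 called changes of nitrogen genes, 101 kept their direction and call under every alternative run for them, among them the rises of UGA4, CAR1, CAR2, PUT3 and ASP3-1 in the triple strain. Of 6292 alternative values, 480 lost the call and 3 changed sign: GDH1 in sip2 to 0.025 and the GDH1 term of SIP1 with SIP2 to -0.082 after median subtraction, and the DAL82 term of SIP1 with SIP2 to -0.106 after quantile normalization, none of them called. Counts of called nitrogen genes moved by over 1.5 times as follows. With the lowest 25% of genes left out, which removes members, sip2 had 7 (39.8% of the genes kept). With values raised to the floor, sip1 sip2 had 3 (0.312% of all genes). With array weights, counts against the reference were 6 in sip1 sip2, 13 in sip1 gal83 and 27 in the triple strain, the triple strain had 23 against sip1 gal83 and 17 against sip2 gal83, and gal83 had 8 against the mean of sip1 and sip2. The shares of all genes rose as well, from 0.257%, 10.9% and 38.4% to 2.94%, 29.3% and 62.2% against the reference, from 13.2% and 14.5% to 41.3% and 37.2% for the triple strain, and from 3.74% to 8.99% for gal83. With the compared groups alone, a fit on fewer arrays, sip2 gal83 had 8 and the triple against sip2 gal83 had 5. There 9.69% and 4.26% of all genes were called. In that setting the triple strain had 23 against the reference. The causes of these moves were not tested.

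Leaving out each array in turn gave 26 to 30 genes that differ among strains. Against the reference it gave 11 to 18 in sip1 (11 without sip1 replicate 2), 7 to 14 in sip2 (7 without reference replicate 2 or sip2 replicate 3), 10 to 15 in gal83, 1 in sip1 sip2, 3 to 8 in sip1 gal83 (3 without reference replicate 1, 2 or 3 or its own replicate 3), 15 to 21 in sip2 gal83 and 17 to 22 in the triple strain. The triple strain had 15 to 21 against sip1 sip2, 9 to 16 against sip1 gal83 (9 without sip1 gal83 replicate 1) and 8 to 12 against sip2 gal83. The gal83 strain had 3 to 5 against the mean of sip1 and sip2, and the interactions had 14 to 17, 15 to 20 and 14 to 19. The shares of all genes in these fits are not given here, so these ranges have no background beside them. The labels do not tie same-numbered arrays of different strains. Their deviations from strain means correlated from -0.352 to 0.333, with medians of 0.064, 0.005 and 0.035 for numbers 1, 2 and 3, and 30 of the 84 pairs were over 0.1, beside a median of -0.018 and 36 of 168 pairs for different numbers. The numbers were not taken to pair the arrays, because not all same-numbered pairs were over 0.1. That rule is strict and cannot decide whether same-numbered arrays belong together, so a fit with a block is given as well. With the replicate number as a block the counts were 29 among strains, 15, 12, 13, 1, 5, 19 and 17 against the reference in the order above, 18, 14 and 11 for the triple against the double strains, 4 for gal83, and 15, 19 and 19 for the interactions. The shares of all genes were 39.5%, 41.5%, 41.4%, 0.239%, 11.1%, 37.6% and 38.5% against the reference. They were 32.6%, 13.3% and 14.7% for the triple against the double strains and 3.65% for gal83. For the interactions they were 52.4%, 51.8% and 48%. More calls fell in the triple than in the sip2 gal83 strain after median subtraction (16 and 15, beside 38.8% and 39.7% of all genes). So it was after quantile normalization (18 and 16, beside 37.6% and 34.9%), with the floor (19 and 18, beside 30.3% and 27.1%) and array weights (27 and 21, beside 62.2% and 48.3%). It was also so without the 3 doubted arrays (20 and 16, beside 46.9% and 28.2%) and with the compared groups alone (23 and 8, beside 47.1% and 9.69%). Fewer fell in the triple strain in the fit as reported, with all probe sets and with trend and robust moderation (17 and 20 in each). There 38.4% and 37.3%, 38.5% and 37.4%, and 38.1% and 36.7% of all genes were called. The same held with the replicate block (17 and 19, beside 38.5% and 37.6%). With the lowest 25% of genes left out it held too (15 and 17, beside 39.7% and 37.2% of those kept). Signal near the lower end of the scale limits DAL1, DAL80 and DAL4, and the sizes of the UGA4, DUR3 and DAL5 changes rest on values under the floor, with which UGA4 in the triple strain was 0.380.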
